A study of Mus musculus with 16 samples.

Results

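Bone morphogenetic protein (BMP) signalling was examined through 10 genes, namely the ligand Bmp4, the receptors Bmpr1a and Bmpr2, the signal transducers Smad1, Smad4 and Smad5, and the target genes Id1, Id2, Id3 and Id4. All probe sets for which the array's annotation gave one of these genes as the only gene were taken, which were 27 of 45037 probe sets. The RNA was 1 preparation of total RNA from cultured embryonic stem cells of the mouse line E14tg2a. On 8 amplified arrays, RNA diluted to 10 pg, about the content of a single cell, was amplified independently for each array by PCR with the V1V3 method before labelling. On 8 nonamplified arrays, 5 µg of the undiluted RNA was labelled directly. Cells, RNA and array type were shared by both groups, so that the arrays within a group are technical replicates and the p-values measure the spread between them and not the spread between cultures. No genotype, treatment or time distinguishes the groups. Whether the culture received serum or BMP is not given in the sources used here.

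BMP ligands such as Bmp4 bind a complex of type II receptors, among them Bmpr2, and type I receptors, among them Bmpr1a. The activated type I receptor phosphorylates Smad1 and Smad5, which join Smad4 and enter the nucleus. Id genes are direct targets there: the Id proteins lack a DNA-binding region and hold basic helix-loop-helix factors away from DNA. In mouse embryonic stem cells, BMP4 acting through Id proteins helps to keep the cells undifferentiated.

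Median intensities per array were between 49.7 and 53.8 on nonamplified and between 33.9 and 36.7 on amplified arrays. Pairs of nonamplified arrays correlated with r between 0.982 and 0.991 across probe sets, and pairs of amplified arrays with r between 0.730 and 0.780. Of 14 probe sets for 8 embryonic stem cell markers 13 were tested, with nonamplified means up to 4391 for Tdgf1. After amplification 3 of the 13 were called higher and 6 lower. The 3 were Sox2 (4050 ± 138 to 5047 ± 327, SD, n = 8 each), Tdgf1 (4391 ± 153 to 6626 ± 342) and Esrrb 1441921_x_at (511 ± 49.4 to 733 ± 104). Among the 6 were Pou5f1 (4159 ± 213 to 3155 ± 464), Nanog (1776 ± 61.0 to 276 ± 79.5) and the other Esrrb probe sets. Of 13 probe sets for 7 fibroblast feeder markers 3 were tested, with a highest nonamplified mean of 82.0 for Col1a2, and 0 were called higher and 2 lower. Of 12 probe sets for 5 endoderm markers 4 were tested, with a highest nonamplified mean of 73.2 for Gata6, and 3 were called higher and 0 lower. Of 10 probe sets for 5 trophoblast markers 5 were tested, 1 called higher and 2 lower. Hand1 1448750_at was higher (38.1 ± 11.3 to 13499.7 ± 446), but Hand1 1417525_at was not called (85.9 ± 16.1 and 71.4 ± 37.2). Tfap2c 1448977_at was at 176 ± 5.62 on nonamplified arrays and at the floor on all 8 amplified arrays. Tfap2c 1418147_at was also lower (131 ± 11.2 to 46.0 ± 25.3), but 1436392_s_at was not called (570 ± 55.7 and 578 ± 506). The part of these markers in the results below was not tested.

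Intensities are linear, per probe set, with a lowest possible value of 1. A fold change is the difference of mean log2(intensity + 16), amplified minus nonamplified, which understates the change of dim probe sets. It was tested with limma over 27022 probe sets with a mean above the 40th percentile, with Benjamini-Hochberg adjustment over all of them and a threshold of 0.05. Levels are compared between arrays for one probe set, never between probe sets. That mean was over both groups, so a probe set bright in only 1 group could pass through that group. Of the 27 probe sets, 21 were tested, with at least 1 for each gene.

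The 10 genes did not move together after amplification from 10 pg. Id1 and Id3 were higher on all 8 amplified arrays than on any nonamplified array, both tested probe sets of Id2 were lower on all 8, and most receptor and Smad probe sets were lower or scattered from array to array. Bmpr2 1441652_at and Smad1 1416081_at were neither. Of the 21 tested probe sets, 2 were called higher, 10 lower and 9 were not called. Some of the 10 passed the filter only through their nonamplified values, so their calls are no support for a direction. They are named with the pathway list below. The share called, 57.1%, lay close to the 57.5% of all probe sets called in either direction, and a probe set was called higher in 9.52% against 24.7% and lower in 47.6% against 32.8%. The median log2 fold change of the 21 was -0.77, beside -0.17 over all probe sets tested. A difference of at least 2-fold was found upward for 2 of them, 9.52% beside 12.5% of all, and downward for 9, 42.9% beside 22.1% of all. For 9 of the 21, every amplified array lay on one side of every nonamplified array, which is 42.9% beside 33.6% of all probe sets tested.

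**Figure D1:**
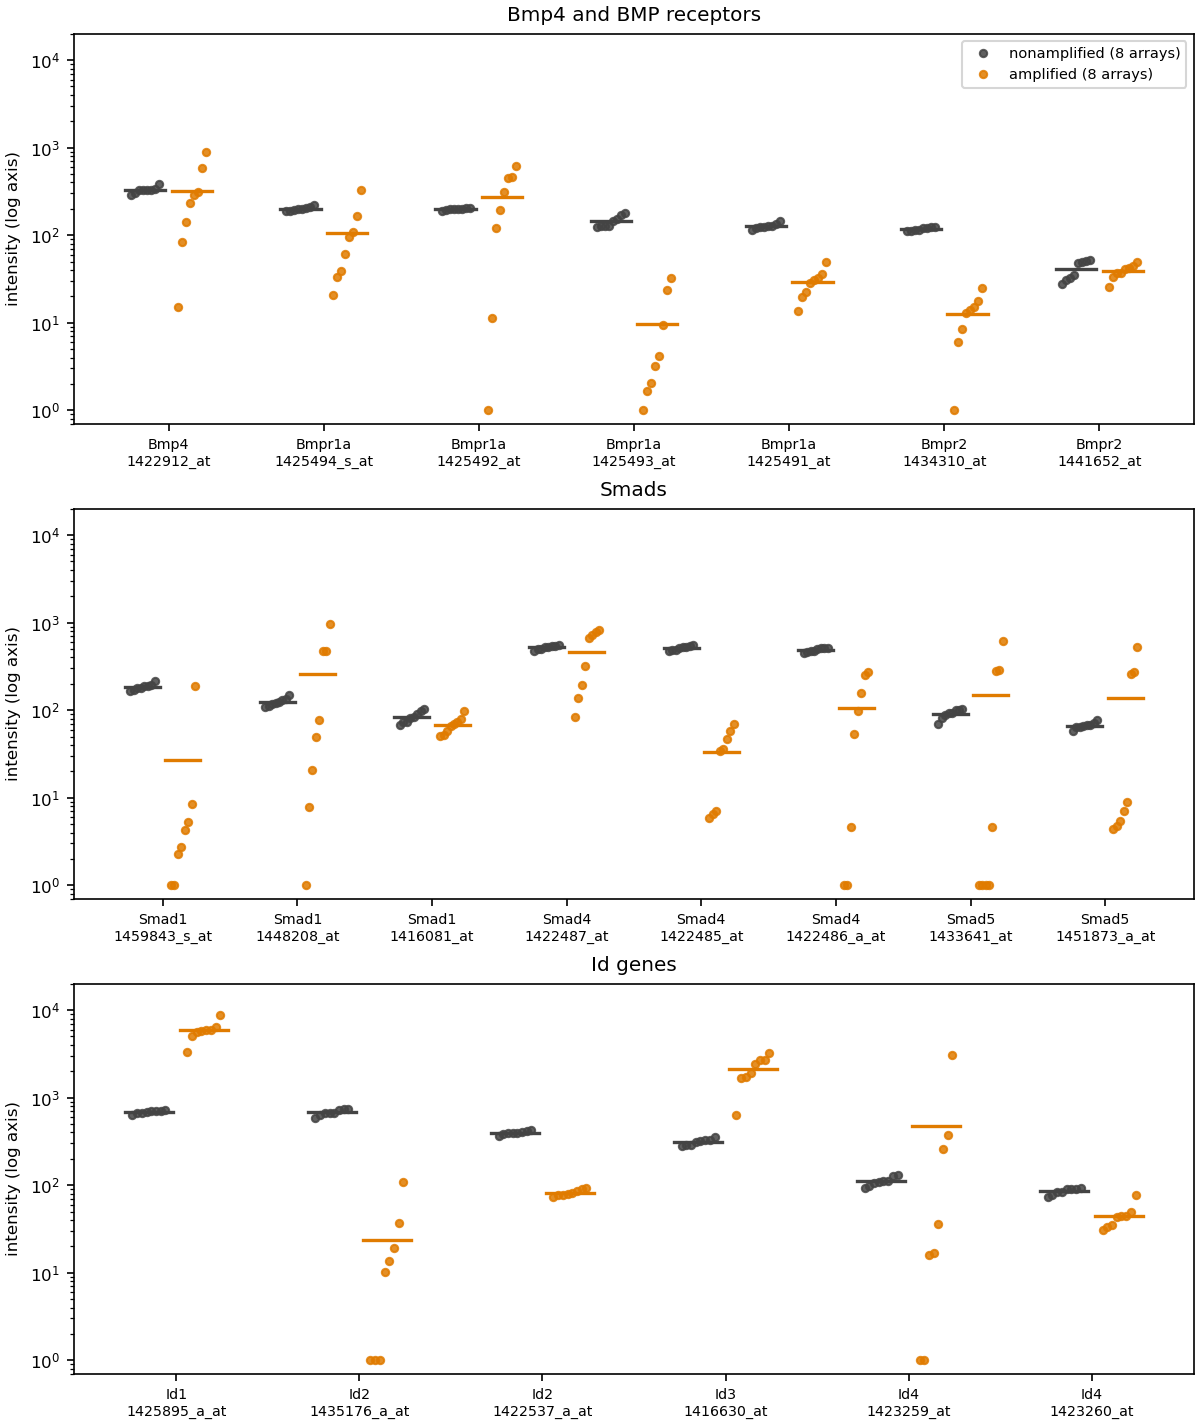
Intensity (log axis, arbitrary units) of the 21 tested probe sets of Bmp4, the receptors, the Smads and the Id genes on 8 nonamplified (grey) and 8 amplified (orange) arrays. Points are single arrays and bars are group means; nonamplified arrays lie closer together than amplified arrays for most probe sets (not for Bmpr2 1441652_at), while Id1 and Id3 lie wholly above, Id2 wholly below, and several Smad probe sets on both sides of them after amplification.

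Bmp4, the ligand, had 1 probe set (1422912_at). It was at 287, 325 and 385 (lowest, median and highest) on nonamplified arrays and at 15.2, 261 and 882 on amplified arrays. Amplified arrays 5 and 7 exceeded all nonamplified arrays, and arrays 1, 3, 4, 6 and 8 were below all of them. The means were 328 ± 28.5 and 317 ± 286 (SD, n = 8 each), and the probe set was not called (log2 fold change -0.61, SE 0.51, limma adjusted p = 0.331). The means were close although the amplified median was lower, since array 5 alone was at 882. Leaving out single arrays moved the log2 fold change of Bmp4 between -0.89 (without amplified array 5) and -0.20 (without amplified array 8).

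Bmpr1a, a type I receptor, was represented by 6 probe sets, of which 5 share 1 design sequence in the annotation, and 4 of these were tested. Their results differed although they were designed from the same sequence. Probe set 1425493_at was at 124, 136 and 177 on nonamplified and at 1, 3.71 and 32.6 on amplified arrays, without overlap (log2 fold change -2.74, SE 0.21, limma adjusted p = 7.27e-09). Probe set 1425491_at was at 115, 125 and 147 and at 13.6, 29.4 and 49.8, likewise without overlap (log2 fold change -1.70, SE 0.13, limma adjusted p = 1.05e-08). Both lay below the nonamplified range on every amplified array.

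Probe set 1425494_s_at of Bmpr1a, whose suffix marks probes that may match more than 1 transcript, was at 187, 198 and 221 on nonamplified and at 20.8, 78.6 and 327 on amplified arrays. Array 4 lay above the nonamplified range and the other 7 below it, and the probe set was called lower (log2 fold change -1.18, SE 0.36, limma adjusted p = 0.0102). When array medians were set equal, the call ended (-0.78, limma adjusted p = 0.0762). Probe set 1425492_at was at 188, 199 and 205 and at 1, 255 and 609.7, with arrays 3, 6, 7 and 8 above and arrays 1, 2 and 5 below all nonamplified arrays (log2 fold change -0.36, SE 0.66, limma adjusted p = 0.667). So the receptor was called lower by 3 of its 4 tested probe sets, and the other had values on both sides of the nonamplified range. The other 2, 1451729_at and 1445413_at, had nonamplified means of 24.9 and 12.0 and were not tested.

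Bmpr2, a type II receptor, had 3 probe sets. Probe set 1434310_at was at 112, 117 and 125 on nonamplified and at 1, 13.4 and 25.1 on amplified arrays, without overlap, and was called lower (log2 fold change -2.27, SE 0.14, limma adjusted p = 6.33e-10). Probe set 1441652_at was at 27.5, 41.5 and 52.4 and at 25.9, 39.2 and 49.3, so the ranges overlapped almost wholly (log2 fold change -0.04, SE 0.12, limma adjusted p = 0.799). After quantile normalization or centring on array medians it was called higher instead (0.36 and 0.37, limma adjusted p = 0.0148 and 0.0150). Probe set 1419616_at was too dim to be tested, with a nonamplified mean of 12.7. In all, 4 of the 6 tested receptor probe sets were called lower and 0 higher, and the median of their log2 fold changes was -1.44.

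Smad1, which receptors of the BMP type phosphorylate, had 3 tested probe sets. Probe set 1459843_s_at was at 167, 183 and 215 on nonamplified and at 1, 3.54 and 189 on amplified arrays. For Smad1 1459843_s_at, array 1 alone lay within the nonamplified range and the other 7 were at 8.38 or lower (log2 fold change -2.94, SE 0.41, limma adjusted p = 1.03e-05), and without array 1 the log2 fold change was -3.36 (SE 0.093, limma adjusted p = 1.24e-13). Probe set 1448208_at was at 110.1, 122 and 149.8 on nonamplified arrays and reached 969 on amplified array 2, with 472 and 480.2 on arrays 4 and 6, and 1 on array 8.

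The means of Smad1 probe set 1448208_at were 124 ± 13.4 and 259.8 ± 351, and this probe set was not called (log2 fold change -0.34, SE 0.74, limma adjusted p = 0.721). Probe set 1416081_at, which shares its design sequence with 1448208_at, was at 66.9, 82.5 and 103 and at 50.4, 67.6 and 97.1, with overlapping ranges and a small spread on both kinds of array (log2 fold change -0.26, SE 0.12, limma adjusted p = 0.0745). Its sign turned after quantile normalization (0.11) and after centring on array medians (0.15), and scaling on hybridization controls or leaving out amplified array 8 made it a call (-0.65 and -0.32, limma adjusted p = 0.00678 and 0.0183). The same gene was thus called lower, scattered or near its nonamplified level, depending on the probe set.

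Smad4, the common partner of the receptor-activated Smads, had 3 probe sets of 1 design sequence. On nonamplified arrays they were at 474 to 551, 477 to 559.6 and 454 to 518. Probe set 1422485_at was at 5.84, 35.1 and 69.1 on amplified arrays, without overlap (log2 fold change -3.62, SE 0.28, limma adjusted p = 7.70e-09). Probe set 1422486_a_at, whose suffix marks probes shared by transcripts of 1 gene, was at 1, 75.8 and 274, also without overlap (log2 fold change -2.83, SE 0.59, limma adjusted p = 0.000553). Arrays 1, 4 and 8 held the 3 lowest values of both of these probe sets.

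Smad4 probe set 1422487_at was at 83.2, 496 and 816 on amplified arrays, with arrays 1, 5, 6 and 8 above and arrays 2, 3, 4 and 7 below every nonamplified array. Its log2 fold change was -0.53 (SE 0.41, limma adjusted p = 0.283), and of the alternatives tried only quantile normalization gave a call (-0.87, limma adjusted p = 0.0357). Leaving out single arrays moved it between -0.70 (without amplified array 6) and -0.26 (without amplified array 2). Arrays 1 and 8, which were near or at the floor for 1422486_a_at, were thus among the brighter arrays for 1422487_at.

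Smad5, the second of the receptor-activated Smads examined, had 3 probe sets, 2 of them tested. Probe set 1433641_at was at 70.2, 92.8 and 103 on nonamplified arrays, while 4 amplified arrays were at the floor of 1 and arrays 1, 6 and 7 at 625, 286 and 281 (log2 fold change -0.93, SE 0.78, limma adjusted p = 0.331). Probe set 1451873_a_at was at 57.7, 66.3 and 78.0 on nonamplified arrays, while amplified arrays 2, 4 and 6 were at 258, 533 and 274 and the other 5 at 8.96 or lower (log2 fold change -0.41, SE 0.70, limma adjusted p = 0.648). Both therefore split the amplified arrays into some above and some below all nonamplified arrays. Leaving out single arrays moved 1433641_at between -1.43 (without amplified array 1) and -0.68, and 1451873_a_at between -0.86 (without amplified array 4) and -0.18 (without amplified array 7). Arrays 2, 4 and 6 were also the arrays on which Smad1 probe set 1448208_at was above all nonamplified arrays. Whether this match is more than coincidence was not tested. Probe set 1421047_at was not tested, with means of 48.3 and 14.97. Of the 8 tested Smad probe sets 0 were called higher and 3 lower, and the median of their log2 fold changes was -0.73.

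**Figure D2:**
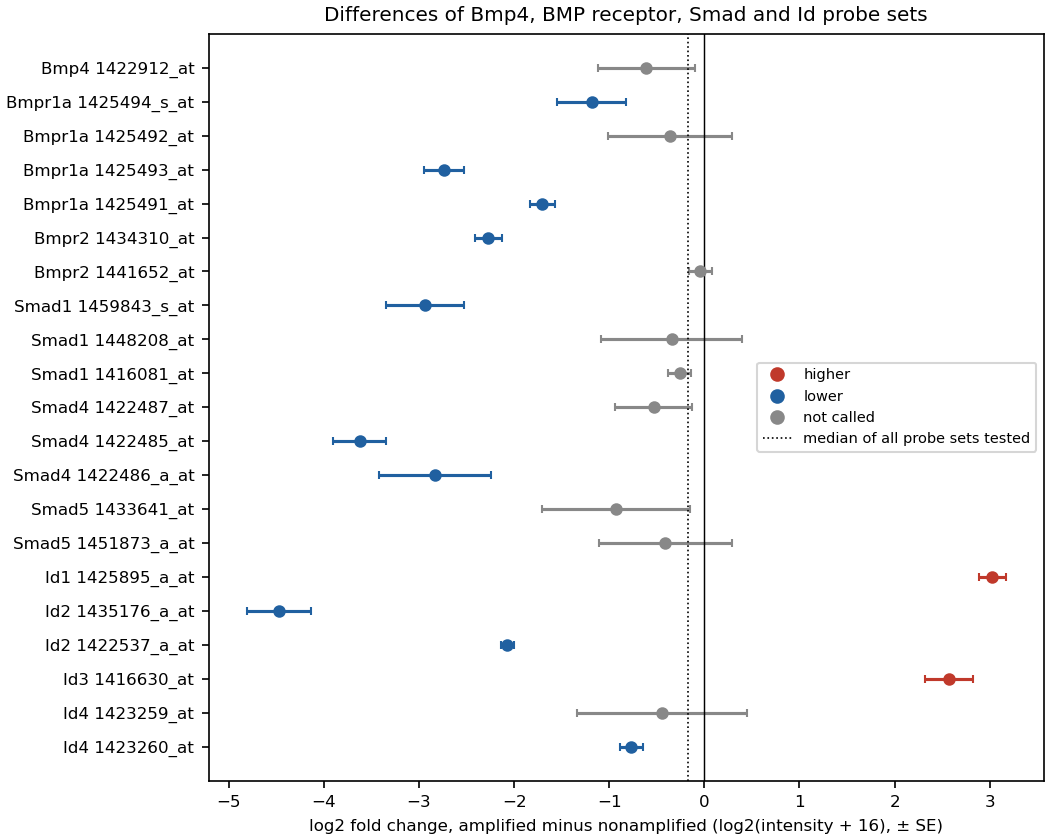
Log2 fold change (amplified minus nonamplified, on log2(intensity + 16), with SE) of the 21 tested probe sets, coloured by call, with the median of all probe sets tested as a dotted line. Id1 (3.03) and Id3 (2.57) lie to the right, 10 probe sets are called lower, and the wide bars belong to probe sets that scatter between amplified arrays.

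The Id genes, the targets of the pathway, gave the strongest differences in both directions among the tested probe sets. Id1 (1425895_a_at) was at 638, 689.6 and 715 on nonamplified and at 3297, 5834 and 8689 on amplified arrays. The groups did not overlap, and the means of 683 ± 26.0 and 5858 ± 1492 (SD, n = 8 each) were far apart (log2 fold change 3.03, SE 0.14, limma adjusted p = 1.42e-11). Id3 (1416630_at) was at 277, 316 and 352 and at 630.5, 2181 and 3231. It too did not overlap (log2 fold change 2.57, SE 0.25, limma adjusted p = 1.55e-07), and amplified array 2 was the lowest. Id1 and Id3 each have 1 probe set, so neither has a second measurement on the array.

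Id2 moved the other way. Probe set 1435176_a_at was at 590.2, 668 and 742 on nonamplified and at 1, 12.0 and 108 on amplified arrays, with arrays 1, 2 and 6 at the floor (log2 fold change -4.47, SE 0.34, limma adjusted p = 6.38e-09). Probe set 1422537_a_at was at 362, 394 and 424 and at 73.1, 81.1 and 92.0 (log2 fold change -2.07, SE 0.069, limma adjusted p = 1.95e-13). Its amplified values were nearly as close to each other as its nonamplified values, with SDs of 0.0995 and 0.0675 on the log2 scale, and the amplified SD was the smallest among the 10 probe sets called lower. The untested probe set 1453596_at had means of 51.5 and 1.32, with 5 of 8 amplified arrays at the floor and no overlap. All 3 Id2 probe sets were thus lower on every amplified array than on any nonamplified array.

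Id4 had 3 probe sets of 1 design sequence. Probe set 1423259_at was at 93.9, 109.8 and 129 on nonamplified arrays and at 1, 26.4 and 3086 on amplified arrays. Arrays 3, 4 and 5 lay above all nonamplified arrays and the other 5 below, so its difference averages over opposite ones (log2 fold change -0.45, SE 0.89, limma adjusted p = 0.697). Leaving out single arrays moved it between -1.17 (without amplified array 4) and -0.098 (without amplified array 2 or 8). Probe set 1423260_at was at 73.9, 86.9 and 91.7 and at 31.0, 43.8 and 77.1, with array 8 alone within the nonamplified range, and was called lower (log2 fold change -0.77, SE 0.12, limma adjusted p = 4.26e-05). Probe set 1450928_at was not tested, with means of 53.3 and 22.7. Over the 6 tested Id probe sets 2 were called higher and 3 lower.

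**Figure D3:**
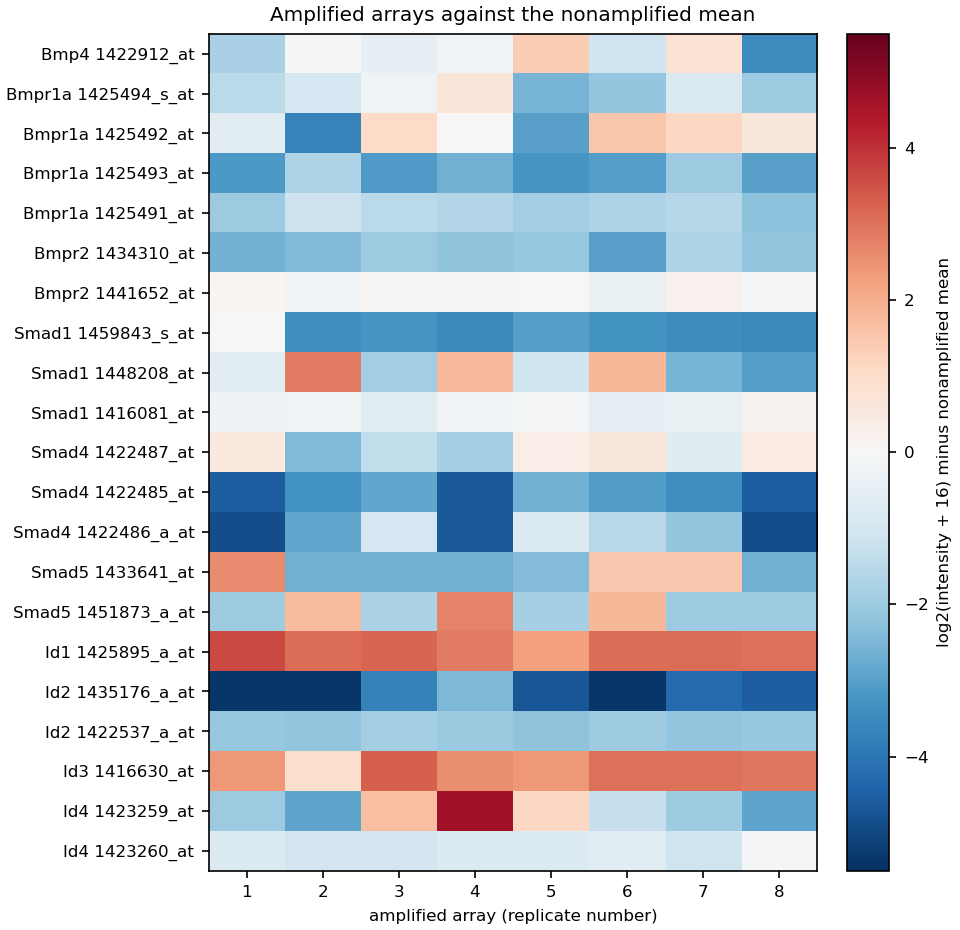
Difference of each amplified array (columns, by replicate number) from the nonamplified mean, on log2(intensity + 16), for the 21 tested probe sets (rows). Id1 and Id3 are red and Id2 blue on every array, whereas Bmp4, Smad5 and Id4 1423259_at are red on some arrays and blue on others, on different arrays for different probe sets.

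Amplified arrays differed more from each other than nonamplified arrays for many of these probe sets. The spread was compared as the absolute deviation of log2(intensity + 16) from the group median, tested with limma over all 27022 probe sets. It was wider on amplified arrays for 9 of the 21 probe sets, 42.9% beside 30.9% of all, and narrower for 0, beside 0.152% of all. The median SD on the log2 scale over the 21 was 0.10 on nonamplified and 0.99 on amplified arrays, beside 0.13 and 0.51 over all probe sets tested. The 9 probe sets were those of Bmp4, 1425494_s_at and 1425492_at of Bmpr1a, all 3 of Smad4, 1448208_at of Smad1, 1435176_a_at of Id2 and 1423259_at of Id4. With any 1 of the 16 arrays left out, this count was 5 or 6. In a group of odd size the median is one of its own values, so 1 deviation is always 0. The counts of 5 or 6 therefore do not compare directly with the 9. In all 16 arrays the count also moved with the setting. It was 6 without a filter, 6 with the replicate number as a block and 14 with deviations from the group mean.

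The largest difference in spread on this scale was that of Id4 1423259_at, with SDs of 0.14 and 2.67 on the log2 scale (spread test, limma adjusted p = 0.0485). For Smad4 1422486_a_at the spread test gave a limma adjusted p of 0.00322 and for Smad1 1448208_at 0.0089. Smad5 1433641_at had SDs of 0.16 and 2.33 and did not pass (limma adjusted p = 0.0979). In all, 8 of the 21 probe sets, 38.1%, had amplified arrays both above and below every nonamplified array, beside 44% of all probe sets tested.

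A value under an array's 25th percentile was taken as a loss of signal on that array; the percentile was between 22.5 and 23.9 on nonamplified and between 13.1 and 14.4 on amplified arrays. Of the 21 probe sets, 0 were under it on a nonamplified array and 11 were under it on at least 1 amplified array. On at least 4 amplified arrays it held for 6, 28.6% beside 9.24% of all probe sets tested. These were Bmpr1a 1425493_at, Bmpr2 1434310_at, Smad1 1459843_s_at, both tested probe sets of Smad5, and Id2 1435176_a_at. Other probe sets of the same genes did not share this: Bmpr1a 1425494_s_at and 1425491_at, Bmpr2 1441652_at and Smad1 1416081_at were under it on 0 amplified arrays. With the 10th percentile in its place the count was 2. All probe sets tested include some that passed the filter only through their amplified values, whereas 0 of the 21 did. Bmpr1a 1425493_at, Bmpr2 1434310_at, Smad1 1459843_s_at and Id2 1435176_a_at passed it only through their nonamplified values. Their loss of signal is therefore no support for a direction. The share of all without probe sets of either kind was not computed.

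Ratios of probe sets within an array do not depend on scaling each array by 1 factor, except where a value is at the floor. Whether the arrays were scaled in that way is not known. Between groups, 26 such ratios were compared by an exact 2-sided permutation test over samples, with Benjamini-Hochberg adjustment over the 26. They were taken as log2 of the intensities without addition, with floor values entering as 1, so that the size of a difference is no measured fold where a probe set is near the floor. Sizes are therefore given with 16 added to each intensity. With 16 added, a ratio and its p-value do depend on the scaling of the arrays. Of 16 pairs of probe sets of 1 gene, 9 had a changed ratio, both after adjustment and at an unadjusted p under 0.05, the latter 56.2% beside 60% of 14847 such pairs over all named genes. Of 10 pairs of genes, 7 had a changed ratio, for which no share over all genes was computed. The smallest p that 8 against 8 arrays allow is 0.000155, which 8 pairs reached. The 2 tested Id2 probe sets moved apart by -2.40 with 16 added (exact permutation p = 0.000155), although both were lower. Smad4 1422487_at and 1422485_at, of 1 design sequence, moved apart by 3.09 at the same p, and Bmpr2 1434310_at and 1441652_at by -2.23 at the same p.

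Between genes, each represented by its tested probe set of the highest nonamplified mean, the ratio of Id1 to Id2 differed by 7.50 and that of Id2 to Id3 by -7.04 with 16 added (exact permutation p = 0.000155 each), where Id2 was at the floor on 3 amplified arrays. For Id1 and Id3, neither of which reached the floor, the log2 ratio without addition was 1.13 ± 0.16 on nonamplified and 1.56 ± 0.80 on amplified arrays (SD, n = 8), and the difference of 0.43 did not pass (exact permutation p = 0.201, adjusted p = 0.262). For the receptors, the ratio of Bmpr1a to Bmpr2 differed by 1.09 with 16 added (exact permutation p = 0.00575, adjusted p = 0.00997). The ratio of Smad1 to Smad4 differed by -2.40 with 16 added (exact permutation p = 0.000155), where Smad1 was under the 25th percentile on 7 amplified arrays. Those of Smad1 and Smad4 to Smad5 did not pass without addition (exact permutation p = 0.0875 and 0.0855), and with 16 added the former did (-2.01, exact permutation p = 0.000155). The Smad1 to Smad4 and receptor ratios hold for the probe sets chosen. Smad4 1422485_at fell more than Smad1 1459843_s_at (log2 fold change -3.62 beside -2.94), and Smad4 1422486_a_at slightly less (-2.83). Bmpr2 1441652_at fell less than Bmpr1a 1425494_s_at (-0.04 beside -1.18), which is the other direction for the receptors. These pairs were not tested. With probe sets averaged within each gene, 14 ratios were changed in place of 16.

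Of the 7 genes with at least 2 tested probe sets, 5 had probe sets with different calls, namely Bmpr1a, Bmpr2, Smad1, Smad4 and Id4, which is 71.4% beside 69.6% of all such genes. Smad5 had 0 called, and Id2 had both called lower. The probe sets whose values over the 16 arrays were nearest to Id2 1435176_a_at, the probe set with the largest absolute fold change, were 1434603_at of Med13l, 1422750_a_at of Zmynd10 and 1446147_at of Rbm39, with root mean square differences of 0.47, 0.54 and 0.54 on the log2 scale.

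The rest of the BMP pathway was taken from a list of 66 further ligands, receptors, Smads, antagonists, intracellular regulators and target or Id partner genes, of which 61 had a probe set and 46 a tested one. Of its 98 tested probe sets 16 were called higher, 38 lower and 44 were not called, 55.1% in all, with a median log2 fold change of -0.36. Of the 98, 7 had a nonamplified mean under the filter intensity of 33.7 and were tested only through their amplified values, and 5 of these were among the 16 called higher, so these 5 are no support for a direction. With the filter on the nonamplified mean, which keeps probe sets bright on nonamplified arrays, 11 were called higher and 48 lower. Of the 21 probe sets above, 0 passed in this way. Others passed only through their nonamplified values, with amplified means under 33.7. Among the 21 these were Bmpr1a 1425493_at and 1425491_at, Bmpr2 1434310_at, Smad1 1459843_s_at, Smad4 1422485_at and Id2 1435176_a_at. In the list they included Acvr1 1416786_at, Twsg1 1421832_at, Ppm1a 1451943_a_at and Usp9x 1450037_at. Their lower calls are likewise no support for a direction. Among 7 ligand probe sets 3 were higher and 1 lower. Bmp7 1418910_at, of another BMP ligand and one of these 5, was at 27.2 ± 6.85 on nonamplified and 574 ± 252 on amplified arrays, and Gdf3, a ligand of the same family made by embryonic stem cells, fell from 898 ± 43.4 to 494 ± 237 by probe set 1449288_at (log2 fold change -0.96, limma adjusted p = 0.00104). Gdf3 1460057_at was not called (log2 fold change -0.35, limma adjusted p = 0.115).

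Among 13 receptor probe sets 1 was higher and 5 were lower. Probe set 1416786_at of the type I receptor Acvr1 was one of those that fell, from 90.5 to 18.4 (log2 fold change -1.65, limma adjusted p = 1.20e-07). Acvr1 probe sets 1448460_at (0.47, limma adjusted p = 0.623) and 1416787_at (0.066, limma adjusted p = 0.555) were not called. The type II receptor Acvr2b fell by 0.95 on the log2 scale with probe set 1439856_at, while 1440525_at, another of those 5, had means of 18.8 and 81.5. Of 4 other Smad probe sets 2 were lower, both of the inhibitory Smad7 (-2.01 and -1.99, limma adjusted p = 0.00092 and 0.0222), the latter not called after centring on array medians (0.0613). Of 8 antagonist probe sets 1 was higher and 3 lower, and the 3 were all probe sets of Twsg1, an extracellular BMP-binding protein. Twsg1 fell from 155 to 8.58 with 1421832_at (log2 fold change -2.82, limma adjusted p = 8.38e-12). Twsg1 1426179_a_at was also called lower (-1.83, limma adjusted p = 6.97e-08), while 1450388_s_at was not called (-0.87, limma adjusted p = 0.0941).

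Of 47 probe sets of intracellular regulators 7 were higher and 19 lower. Ppm1a, a phosphatase that acts on Smads, fell from 337 to 2.95 (log2 fold change -4.26, limma adjusted p = 5.71e-14) with 1451943_a_at. Usp9x, a deubiquitinase of Smad4, fell from 305 to 1.26 (log2 fold change -4.21, limma adjusted p = 1.58e-16) with 1450037_at. Fkbp1a, which binds type I receptors, was higher with 1438795_x_at (log2 fold change 0.91, limma adjusted p = 1.59e-08), which became 0.022 after quantile normalization.

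Of 19 probe sets of targets and Id partners 4 were higher and 8 lower. Tcf3, which encodes E proteins that Id proteins bind, fell from 373 to 53.2 with 1427764_a_at (log2 fold change -2.78, limma adjusted p = 4.63e-06), while 1426297_at of the same gene was higher by 1.86 (limma adjusted p = 0.0277). The latter call ended without amplified array 5 (limma adjusted p = 0.0522), without array 8 (0.0548) and after scaling on hybridization controls (0.0817). The probe sets of Gata2, a transcription factor gene, differed in direction: 1450333_a_at fell from 67.6 to 25.5 (log2 fold change -1.05, limma adjusted p = 2.39e-05), while 1428816_a_at, also one of those 5, had means of 25.9 and 519.

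**Figure D4:**
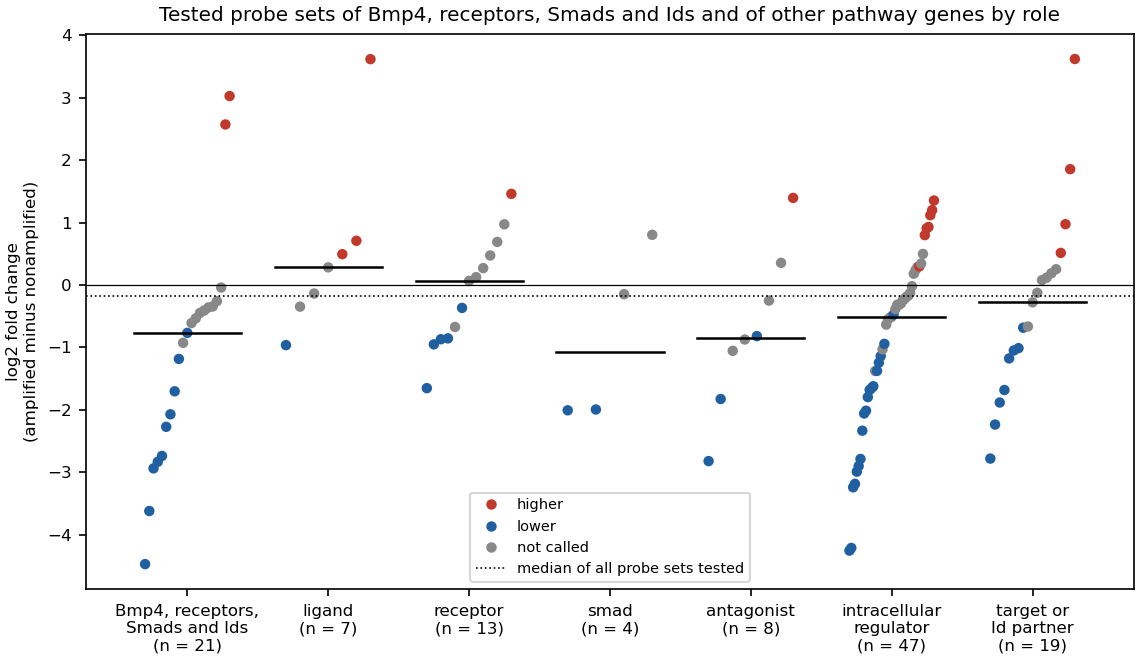
Log2 fold change (amplified minus nonamplified, on log2(intensity + 16)) of the 21 tested probe sets of Bmp4, receptors, Smads and Ids and of 98 tested probe sets of other pathway genes, by role, coloured by call. Short bars are group medians, at -0.77 for the former, and the dotted line is the median of all probe sets tested; each role holds probe sets called lower, and all but the other Smads hold some called higher.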

How the data were processed

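The deposited table gives 1 linear intensity per probe set and array for 45101 probe sets, with a lowest value of 1. Per the labels' protocols, total RNA was isolated with a column kit, and biotin-labelled cRNA came from the one-cycle Affymetrix assay, which started from amplified cDNA in the amplified group. How probes were summarised and arrays scaled is not given in the sources used here, and intensities were used as deposited. After 64 control probe sets were left out, 45037 remained; the supplied platform annotation gave 1 gene symbol for 34945, of which 34943 matched the RefSeq table of GRCm38.p6, several for 932 and none here for 9160. Probe coordinates were not used here.

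Groups were compared on log2(intensity + 16) with limma 3.58.1 (lmFit, eBayes; R 4.3.3), without covariates, over probe sets whose mean exceeded the 40th percentile, near an intensity of 33.7. Ratios used exact permutation over all regroupings, computed with numpy 2.4.6. The number of arrays limits the precision. The genes, the lists and the tests were chosen with earlier results of these data known. From the pathway list, the named genes were, per role, the 2 probe sets with the highest nonamplified mean and the 2 called ones with the largest absolute fold change, and a part of them is given; the marker genes given with values and Gata2 1450333_a_at were chosen after their values were seen. The calculations were tested on simulated data. Replicate numbers did not pair arrays. Figures were drawn with matplotlib 3.10.9.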

Additional observations from a re-analysis of the deposited data

Results flagged for a closer look

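In 42 groups of 8 arrays (each tested probe set in each group), the gap between the most distant array and its nearest neighbour was divided by the group's range, on log2(intensity + 16), and 2 groups exceeded Dixon's 95% critical value. By chance about 1 group in 20 is expected to. For Smad1 1459843_s_at, amplified array 1 was at 189.34, a gap of 0.855 of the range. For Id3 1416630_at, amplified array 2 was at 630.49, a gap of 0.596 of the range, and without it the log2 fold change was 2.80 (SE 0.14, limma adjusted p = 9.26e-11).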

How the results depend on the processing

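Over the alternatives, 2 or 3 probe sets of the 10 genes were called higher and 7 to 14 lower. The extremes came from other filters, which tested other probe sets. Without a filter 14 were lower, and with the filter on the nonamplified mean 13, each with probe sets beyond the 21. With the 60th percentile, which kept 16 of the 21, 7 were lower. Under these filters each of the 21 that was tested kept its call. Where the 21 alone were tested, 8 to 11 were lower. Leaving out single arrays gave 2 higher in each case and 10 to 11 lower, 15 to 19 higher and 34 to 38 lower in the pathway list, 6382 to 6775 higher and 8397 to 9015 lower over all probe sets, 15 to 17 changed ratios, and 5 to 6 probe sets of wider spread. Calls depend on the unknown scaling. Over all probe sets 6677 were higher and 8866 lower, a share of 43.0% higher, which became 63.2% after centring on medians, 54.1% after scaling on the brighter 50% and 23.3% after scaling on hybridization controls. The median log2 fold change of all was 0.24, 0.045 and -0.56 in these, and that of the 21 was -0.36, -0.55 and -1.16. With the filter on the nonamplified mean, the median of all was -0.41 and the share higher 29.9%. Centring on medians gave 10305 higher over all and 30 in the pathway list, and hybridization controls 3566 and 9. Against a log2 difference of 1, 1962 were higher and 3148 lower over all, and 2 and 16 in the list. Without a filter 13996 were lower over all, and with the 60th percentile as filter 5266. Deviations from the group mean gave 14 probe sets of wider spread, and the 10th percentile gave 2 that lost signal.

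Signs turned for Bmpr1a 1425492_at (0.049 after centring on medians; -0.63 to 0.11 without single arrays), Bmpr2 1441652_at (0.36 after quantile normalization, 0.37 after centring, 0.17 on the brighter 50%; -0.093 to 0.013 without single arrays), Smad1 1448208_at (0.065 after centring, 0.037 with 64 added; -0.79 to 0.042 without single arrays) and Smad1 1416081_at (0.11 and 0.15 after quantile normalization and centring). They also turned for Smad5 1451873_a_at (0.045) and Id4 1423259_at (0.068) with 64 added, Gdf3 1460057_at (0.062 after centring) and Fkbp1a 1438958_x_at (-0.086 after quantile normalization). The cause was not tested. Same-numbered arrays did not deviate together (r between -0.0078 and 0.018, and 3 of 8 best with their own number). With the replicate number as a block, 2 probe sets were higher and 10 lower, 16 and 36 in the pathway list, 6359 and 8497 over all, and 6 had a wider spread.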
